A study of Homo sapiens with 15 samples.

Results

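The RAB genes encode the largest family of small GTPases in human cells, and RAB31, an early endosomal and trans-Golgi member, is the one given in most detail here. Members were all genes of the deposited count table whose symbol is RAB followed by digits and at most a letter, which gave 55 of the 18858 genes in the table. The rule used names only and no measured value. Their messenger RNA was measured in MDA-MB-231, a long-established line of human breast adenocarcinoma cells, as poly(A) RNA sequencing reads counted per gene. Control cells were untransfected, siControl cells received a non-targeting siRNA pool, siYAP cells a pool against YAP1, siTAZ cells a pool against WWTR1 (the gene of the protein TAZ), and siYAP+TAZ cells both of these pools. After 48 h of knockdown, cells of all groups stood on gelatin-coated plates for 5 to 6 h before RNA was taken. The co-knockdown received more siRNA in total than the single knockdowns, and the larger amount and the loss of both targets cannot be told apart. Each group had 3 libraries, numbered 16, 21 and 26 for Control, 17, 22 and 27 for siControl, 18, 23 and 28 for siYAP, 19, 24 and 29 for siTAZ, and 20, 25 and 30 for siYAP+TAZ. Values are listed in that order throughout, and replicates 1, 2 and 3 stand for libraries 16 to 20, 21 to 25 and 26 to 30.

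RAB proteins act as switches on membranes. In the GTP-bound form each marks a set of vesicles or organelles and recruits effectors that move, tether or fuse them, exchange factors load the GTP, GTPase-activating proteins end the signal, and a prenyl group added by a transferase holds the protein in the membrane. In invasive breast cancer cells, RAB-directed traffic carries proteases, integrins and growth factor receptors between endosomes, the Golgi and the plasma membrane. YAP and TAZ are coactivators that work mainly with the TEAD transcription factors and often at enhancers also bound by AP-1.

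The libraries held 18696737 to 30107312 counts in total (median 22902846). The lowest and highest totals were 19067397 and 23502695 in Control, 22902846 and 27618692 in siControl, 22677782 and 30107312 in siYAP, 18696737 and 27398015 in siTAZ, and 19445379 and 25583102 in siYAP+TAZ. RAB genes together took 0.285% of the counts in siControl (SD 0.00472, n = 3) and 0.309% in siYAP+TAZ (SD 0.00324, n = 3). No RAB gene was at 0 in any library, so the counting error is large only for the lowest members. Values below are normalized counts, that is counts scaled for library size and composition to a common depth. The mesenchymal genes of this line were abundant in siControl, with means of 28898 normalized counts for vimentin (VIM), 20818 for CD44, 36761 for AXL, 16818 for CAV1, 31264 for MSN and 1922 for ZEB1. In siYAP+TAZ the means were lower for AXL, at 25825 (SD 651, n = 3, against an SD of 1322 in siControl), and for CAV1, at 13156 (SD 253, n = 3, against 1472). The other siYAP+TAZ means were 31008 for VIM (SD 4960), 22875 for CD44 (SD 576), 33827 for MSN (SD 4868) and 1887 for ZEB1 (SD 99.96). In siControl the progesterone receptor gene PGR was near 0 at 1.26, and the leukocyte gene PTPRC had 3.34. The fibroblast gene COL1A1 had 369 in siControl (SD 124, n = 3) and 495 in siYAP+TAZ (SD 30.2, n = 3). The other markers of further cell types had no entry in the deposited count table: DCN of fibroblasts, CD68 of immune cells, VWF and CDH5 of endothelium, and MLANA and TYR of melanocytes. The epithelial junction gene CLDN4 was not low, at 3070 normalized counts in siControl (SD 110, n = 3) and 3980 in siYAP+TAZ (SD 118, n = 3). EPCAM had 342 in siControl and 313 in siYAP+TAZ, and CLDN3 98.9 and 113. The part of such markers in the RAB results was not tested. ESR1 and CDH1, which mark luminal cells, were looked up and had no entry in the deposited count table.

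The siRNA targets were lowered in the libraries that received their pools. YAP1 had 4431, 4333 and 4202 normalized counts in siControl, 1013, 2764 and 761 in siYAP, 4996, 4390.1 and 4393 in siTAZ and 2240.2, 2202 and 1796 in siYAP+TAZ. Every library given the YAP1 pool lay below every siControl library, and siYAP library 23 was the highest of these 6. The log2 fold change of YAP1 was -1.51 in siYAP (edgeR quasi-likelihood test with Benjamini-Hochberg adjustment over all genes, adjusted p 0.0992) and -1.06 in siYAP+TAZ (adjusted p 0.0723), so neither passed 0.05 with this spread. WWTR1 had 1995, 1850.2 and 1579 in siControl, 828, 254 and 521 in siTAZ, 1956, 1423 and 2001 in siYAP and 1133, 1123 and 1284 in siYAP+TAZ. It was lowest in siTAZ (log2 fold change -1.74, adjusted p 0.0187) and between siTAZ and siControl in the co-knockdown (-0.62, adjusted p 0.199). The labels and the target genes therefore match in direction in all 9 knockdown libraries, while the depth of knockdown differed among them.

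In a principal component analysis of all genes the first component held 21.2% of the variance and the second 17.6%. Libraries 26 to 30 of all 5 groups and siTAZ library 24 had negative values on the second component (-6.54 to -36.3), and the other 9 had positive ones (4.21 to 35.2). The labels do not say whether the replicates are separate cultures, and the study describes independent sets of experiments without saying which libraries form a set, so p-values measure the spread between these samples. The labels also do not say what the numbers stand for, each run of 5 consecutive numbers holds 1 library of each group, and differences within each run are given beside the RAB31 result.

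In siYAP+TAZ, 14 of the 55 RAB genes changed against siControl, where changed means an edgeR adjusted p of at most 0.05. Of all 18858 genes, 18.4% did. RAB genes that rose were 12 (9.97% of all genes rose) and RAB genes that fell were 2 (8.39% of all genes fell). A fold of at least 2 in either direction as well, that is a log2 fold change of 1 or more in size, is called differentially expressed here, and it was met by 4 RAB genes (RAB7B, RAB37, RAB3D and RAB31, all higher) and by 3.46% of all genes. The median log2 fold change was 0.09 over the RAB genes and -0.00 over all genes. In 22 RAB genes the 3 siYAP+TAZ libraries and the 3 siControl libraries did not overlap, 18 above and 4 below, against 36.4% of all genes. Among the 41 RAB genes that averaged 100 normalized counts or more 8 changed, 6 higher and 2 lower. Of all 10640 genes at that level 2838 changed, 1332 higher and 1506 lower, and the difference in share was not tested. The members that changed are given by cellular role below, and the plot of all RAB genes by role shows each fold change with its interval. Roles were assigned with earlier results of these data known, so counts by role are descriptions.

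**Figure D1:**
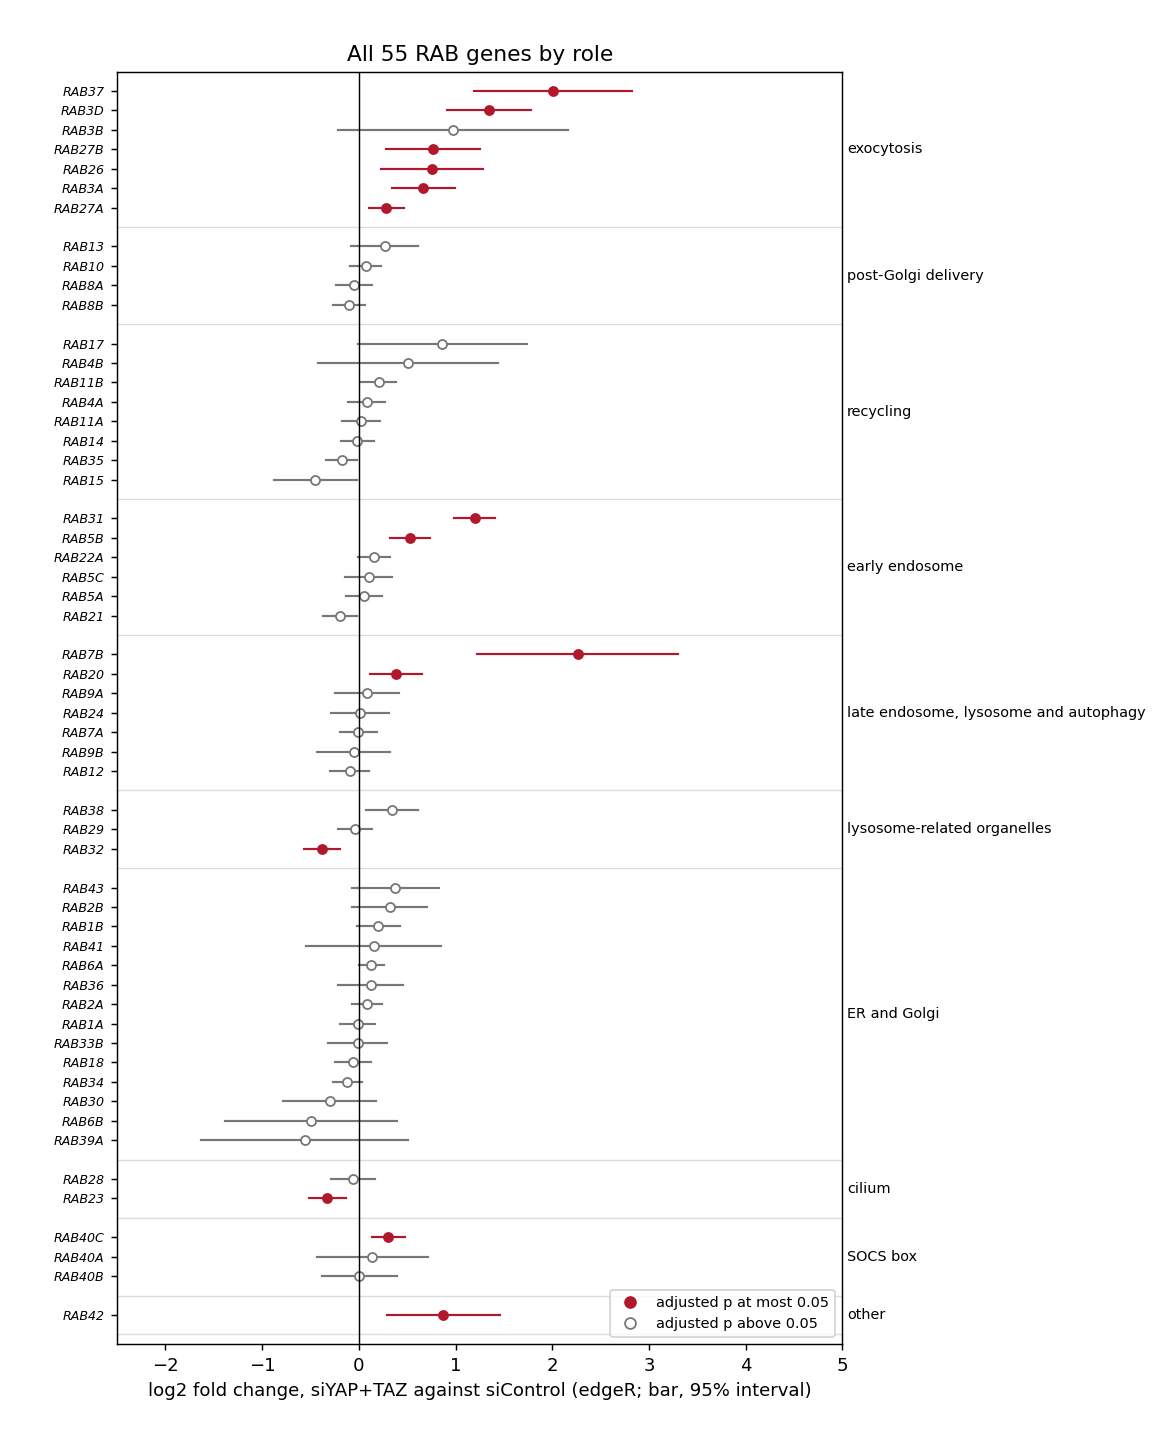
Log2 fold change of each of the 55 RAB genes in siYAP+TAZ against siControl (3 libraries each), grouped by cellular role, with 95% intervals from edgeR. Filled points have an adjusted p of at most 0.05: 12 lie above 0 and 2, RAB32 and RAB23, below it, and 6 of the 7 genes of exocytosis are filled. Roles were assigned with earlier results of these data known.

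Of the 6 early endosomal RAB genes, RAB31 and RAB5B rose, where 9.97% of all genes did, and the other 4 did not pass the test. RAB31, also known as RAB22B, directs traffic between the trans-Golgi network and endosomes and takes part in the sorting of receptors such as EGFR. The gene lies on chromosome 18 from 9708275 to 9862551 on the plus strand (GRCh38, GENCODE 44), and none of its exonic bases overlap another gene. RAB31 had 907, 991 and 983 normalized counts in Control, 1114, 1147 and 868 in siControl, 1214, 1506 and 1286 in siYAP, 1559, 1816 and 1724 in siTAZ and 2289, 2543 and 2354 in siYAP+TAZ. The groups formed steps: every siYAP library stood above every siControl library, every siTAZ library above every siYAP library, and every siYAP+TAZ library above every siTAZ library, while Control and siControl overlapped. The rise in siYAP+TAZ was 2.29-fold (log2 fold change 1.198, SE 0.10, 95% interval 0.98 to 1.41, adjusted p 5.02e-07). Within libraries 16 to 20, 21 to 25 and 26 to 30 the log2 difference between siYAP+TAZ and siControl was 1.04, 1.15 and 1.44, and without libraries 26 to 30 the log2 fold change was 1.11. A change in RNA per cell and a change in the share of cells that express a gene cannot be told apart in such bulk libraries.

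The 250 bases before a RefSeq start of 5 RAB genes are shown: RAB31 with its closest relative RAB22A, and RAB5B, RAB3D and RAB7B as other endosomal and secretory RAB genes that rose. RAB37, which rose more than RAB31 and RAB3D, had no entry. They are RefSeq sequences of GRCh38.p14, written 5′ to 3′ on the strand of the gene, and 45 of the 55 RAB genes had an entry. Capitals mark GGAATG, the core letters of TEAD motifs, or TGANTCA, the letters of AP-1 motifs, each searched on both strands. The windows are chr18:9708051-9708300 (plus strand) for RAB31, chr20:58309465-58309714 (plus) for RAB22A, chr12:55973699-55973948 (plus) for RAB5B, chr19:11339658-11339907 (minus) for RAB3D and chr1:206003396-206003645 (minus) for RAB7B. RefSeq starts differ from the GENCODE gene ends: the RAB3D window lies inside its GENCODE gene, the RAB31, RAB5B and RAB7B windows reach into theirs, and the RAB22A window ends before its gene.
RAB31: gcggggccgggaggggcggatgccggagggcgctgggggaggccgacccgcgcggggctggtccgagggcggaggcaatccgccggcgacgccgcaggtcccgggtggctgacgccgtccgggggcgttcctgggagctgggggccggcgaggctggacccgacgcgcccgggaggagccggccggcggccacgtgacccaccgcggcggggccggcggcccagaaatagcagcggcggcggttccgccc
RAB22A: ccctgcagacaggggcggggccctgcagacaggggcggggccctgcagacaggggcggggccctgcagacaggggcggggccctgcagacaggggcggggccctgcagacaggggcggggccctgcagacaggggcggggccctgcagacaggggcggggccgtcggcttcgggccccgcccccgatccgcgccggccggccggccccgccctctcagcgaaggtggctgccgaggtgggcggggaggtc
RAB5B: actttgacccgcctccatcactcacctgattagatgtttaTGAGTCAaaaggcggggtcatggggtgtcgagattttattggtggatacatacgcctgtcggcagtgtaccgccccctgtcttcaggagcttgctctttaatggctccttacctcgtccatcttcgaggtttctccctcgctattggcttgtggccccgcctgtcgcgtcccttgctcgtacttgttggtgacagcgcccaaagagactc
RAB3D: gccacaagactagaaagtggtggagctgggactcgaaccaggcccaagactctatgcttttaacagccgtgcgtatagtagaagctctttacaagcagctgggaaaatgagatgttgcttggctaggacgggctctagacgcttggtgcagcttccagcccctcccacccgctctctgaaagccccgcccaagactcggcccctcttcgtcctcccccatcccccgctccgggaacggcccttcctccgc
RAB7B: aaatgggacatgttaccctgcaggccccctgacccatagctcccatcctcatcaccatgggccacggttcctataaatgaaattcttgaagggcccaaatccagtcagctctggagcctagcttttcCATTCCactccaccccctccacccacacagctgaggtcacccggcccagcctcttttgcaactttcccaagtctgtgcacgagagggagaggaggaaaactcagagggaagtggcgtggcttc
RAB31, RAB22A and RAB3D had neither set of letters in these windows. RAB5B had the AP-1 letters 210 bases before the start shown, and RAB7B had the TEAD letters, as their reverse complement CATTCC, 123 bases before the start shown. Each of these genes has another RefSeq window (chr12:55973828-55974077 for RAB5B and chr1:205994458-205994707 for RAB7B) with neither set of letters, and the window with the match is the one shown. G and C made up 82% of the RAB31 window and 80.8% of the RAB22A window, against a median of 58% over the windows of all genes. The TEAD letters were in 9.09% of the 66 RAB windows and in 11.9% of all 35116 windows, and the AP-1 letters in 9.09% and 6.57%. Of the 9 RAB genes with an entry that rose, RAB27A and RAB7B had the TEAD letters and RAB27A, RAB27B and RAB5B the AP-1 letters in a window. Among all 45 RAB genes with an entry, 6 had the TEAD letters and 6 the AP-1 letters. These matches describe letters and not binding.

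RAB5B, 1 of the 3 RAB5 genes whose proteins drive fusion of early endosomes, lies on chromosome 12 from 55973913 to 55996683. It had 1579, 1669.9 and 1550.2 normalized counts in siControl, 1628, 1891 and 1981 in siYAP, 1755, 2179.8 and 2019 in siTAZ and 2379, 2187 and 2338 in siYAP+TAZ. All 3 co-knockdown libraries were above all siControl, siYAP and siTAZ libraries, and siYAP overlapped siControl. RAB5B rose 1.44-fold in siYAP+TAZ (log2 fold change 0.52, SE 0.10, adjusted p 0.00104). Its paralogs did not pass: RAB5A had 1778, 1777 and 1462 in siControl and 1709, 1831 and 1666 in siYAP+TAZ (log2 fold change 0.05, 95% interval -0.14 to 0.24, adjusted p 0.754). For RAB5C the log2 fold change was 0.10 (95% interval -0.14 to 0.34, adjusted p 0.607). In both paralogs the groups overlapped. RAB22A, the closest relative of RAB31 and like it a regulator of early endosomal sorting, had 2068, 2225 and 2102 in siControl and 2287, 2390.3 and 2462 in siYAP+TAZ. The RAB22A groups did not overlap, yet the difference was small (log2 fold change 0.16, 95% interval -0.00 to 0.32, adjusted p 0.178) and did not pass, except by library size alone (adjusted p 0.0472) and against Control (0.0366). RAB21, which accompanies integrins into the cell, had 1779, 1829 and 1694 in siControl and 1539, 1719 and 1377 in siYAP+TAZ, with overlap (log2 fold change -0.19, adjusted p 0.119), and passed without siYAP+TAZ replicate 2 (adjusted p 0.0370).

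**Figure D2:**
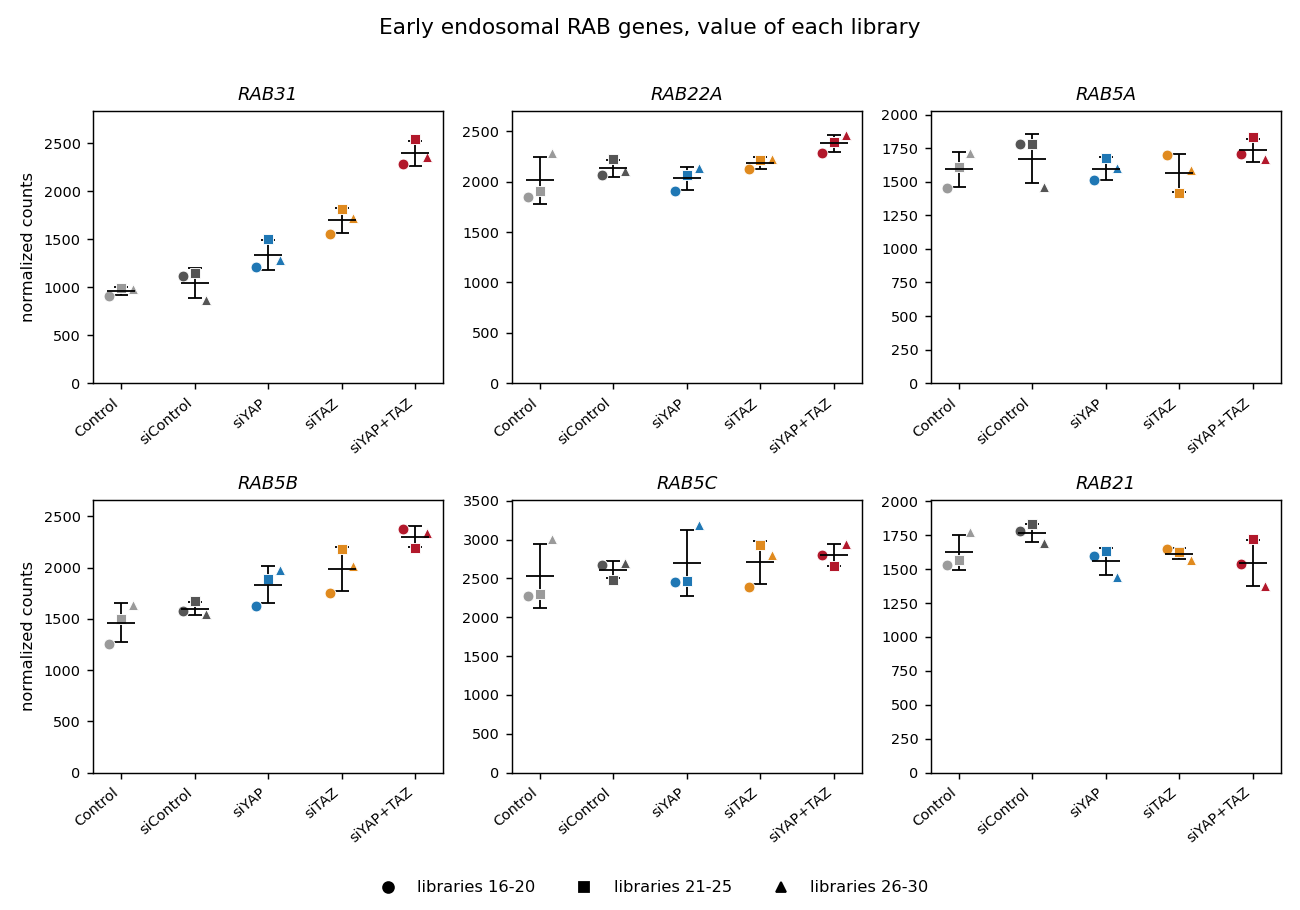
Normalized counts of the 6 early endosomal RAB genes in each of the 15 libraries (symbols mark the runs of library numbers, horizontal bars the group mean and error bars the SD of 3 libraries). RAB31 climbs from 868 to 1147 in siControl to 2289 to 2543 in siYAP+TAZ, with siYAP and siTAZ between them, while RAB5A and RAB5C overlap.

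Genes of regulated exocytosis, whose proteins bring secretory granules and multivesicular endosomes to the plasma membrane, lay on the upper side in the co-knockdown. Of the 7 measured 6 rose, where 9.97% of all genes did, and all 7 had positive fold changes. The median log2 fold change of the 7 was 0.77, against -0.00 over all genes. As the roles were assigned with earlier results of these data known, these values are a description and not a test of the group. Of the 7, all but RAB27A and RAB27B averaged under 100 normalized counts. Calls were 1881 higher and 1583 lower over all genes, but 1332 higher and 1506 lower among genes that averaged 100 or more. Calls under that level were therefore mostly higher in general, and a difference of the exocytic genes from other weakly expressed genes was not tested. RAB26, RAB27A and RAB27B did not pass without siControl replicate 3. RAB3D, a RAB of secretory granules in exocrine and other secretory cells, had 24.0, 32.6 and 31.6 normalized counts in Control, 32.3, 41.6 and 32.2 in siControl, 36.0, 41.3 and 50.3 in siYAP, 37.9, 28.1 and 37.3 in siTAZ and 102, 92.4 and 77.1 in siYAP+TAZ. Both single knockdowns overlapped siControl, and all 3 co-knockdown libraries stood above every library of the other 4 groups. RAB3D rose 2.54-fold (log2 fold change 1.35, SE 0.21, 95% interval 0.91 to 1.79, adjusted p 0.000193). Other genes lie on the opposite strand along 24% of the exonic bases of RAB3D (chromosome 19, 11322068 to 11346270), and reads of such partners cannot be told apart where counting does not use strand, which is not stated.

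RAB37, found on secretory granules of mast cells and other secretory vesicles, had 7.65, 7.40 and 12.9 normalized counts in siControl, 17.6, 7.95 and 18.5 in siYAP, 24.1, 10.5 and 12.9 in siTAZ and 32.1, 46.2 and 33.0 in siYAP+TAZ. The single knockdowns spread across the siControl range and above it, and the co-knockdown was higher than all of them. RAB37 rose 4.01-fold (log2 fold change 2.004, SE 0.39, adjusted p 0.00138), and genes on the opposite strand cover 21.6% of its exonic bases. RAB3A, best known from synaptic vesicles, had 42.0, 42.0 and 44.7 in Control, 56.1, 64.7 and 53.6 in siControl, 67.4, 69.9 and 70.9 in siYAP, 58.6, 60.9 and 54.0 in siTAZ and 97.5, 82.7 and 97.3 in siYAP+TAZ. All siYAP+TAZ libraries were above all others, and all Control libraries below all siControl libraries. RAB3A rose with a log2 fold change of 0.67 (SE 0.16, adjusted p 0.00530). RAB27B and RAB27A dock multivesicular endosomes and secretory granules at the plasma membrane. RAB27B had 159.9, 153 and 85.8 in siControl and 243, 252 and 192 in siYAP+TAZ (log2 fold change 0.77, SE 0.23, adjusted p 0.0269). RAB27A, the more abundant paralog, had 598, 591 and 526 and 680.1, 719.8 and 692 (log2 fold change 0.29, SE 0.09, adjusted p 0.0245). In siYAP it had 642, 652 and 609, all above siControl. RAB26, a RAB of secretory granules and synaptic vesicles, had 27.2, 29.6 and 20.4 in siControl and 45.2, 34.4 and 51.4 in siYAP+TAZ (log2 fold change 0.76, SE 0.25, adjusted p 0.0420). The siYAP+TAZ libraries of all 3 genes lay above the siControl libraries, and their calls depended on which libraries were kept. RAB27B did not pass (adjusted p in parentheses) without siControl replicate 3 (0.1003), siYAP+TAZ replicate 1 (0.0822) or siYAP+TAZ replicate 2 (0.0921). RAB27A did not pass (adjusted p in parentheses) without siControl replicate 3 (0.107) or siYAP+TAZ replicate 2 (0.0765), nor in libraries 16 to 25 alone (0.0786). RAB26 did not pass (adjusted p in parentheses) without siControl replicate 1 (0.0835), siControl replicate 2 (0.0611), siControl replicate 3 (0.145), siYAP+TAZ replicate 1 (0.1003) or siYAP+TAZ replicate 3 (0.157), nor by DESeq2 (0.0561), with only the groups compared in the fit (0.0544), against Control (0.05001) or in libraries 16 to 25 alone (0.289).

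RAB3B was the member of this group that did not pass, and it, RAB5C, RAB6A, RAB13, RAB15, RAB36, RAB38 and the neighbours in the order of levels were named after their values were seen. It had 22.0, 25.6 and 5.26 normalized counts in Control, 34.02, 28.7 and 11.8 in siControl, 78.9, 70.7 and 72.9 in siYAP, 28.4, 16.4 and 7.71 in siTAZ and 65.4, 71.98 and 14.7 in siYAP+TAZ. Libraries 26, 27, 29 and 30 were each the lowest of their group, and the siYAP libraries were high in all runs. In siYAP+TAZ its log2 fold change was 0.97 (95% interval -0.22 to 2.16, adjusted p 0.265), which became 1.44 (adjusted p 0.0309) without siYAP+TAZ replicate 3 and 1.14 (adjusted p 0.00336) in libraries 16 to 25 alone.

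**Figure D3:**
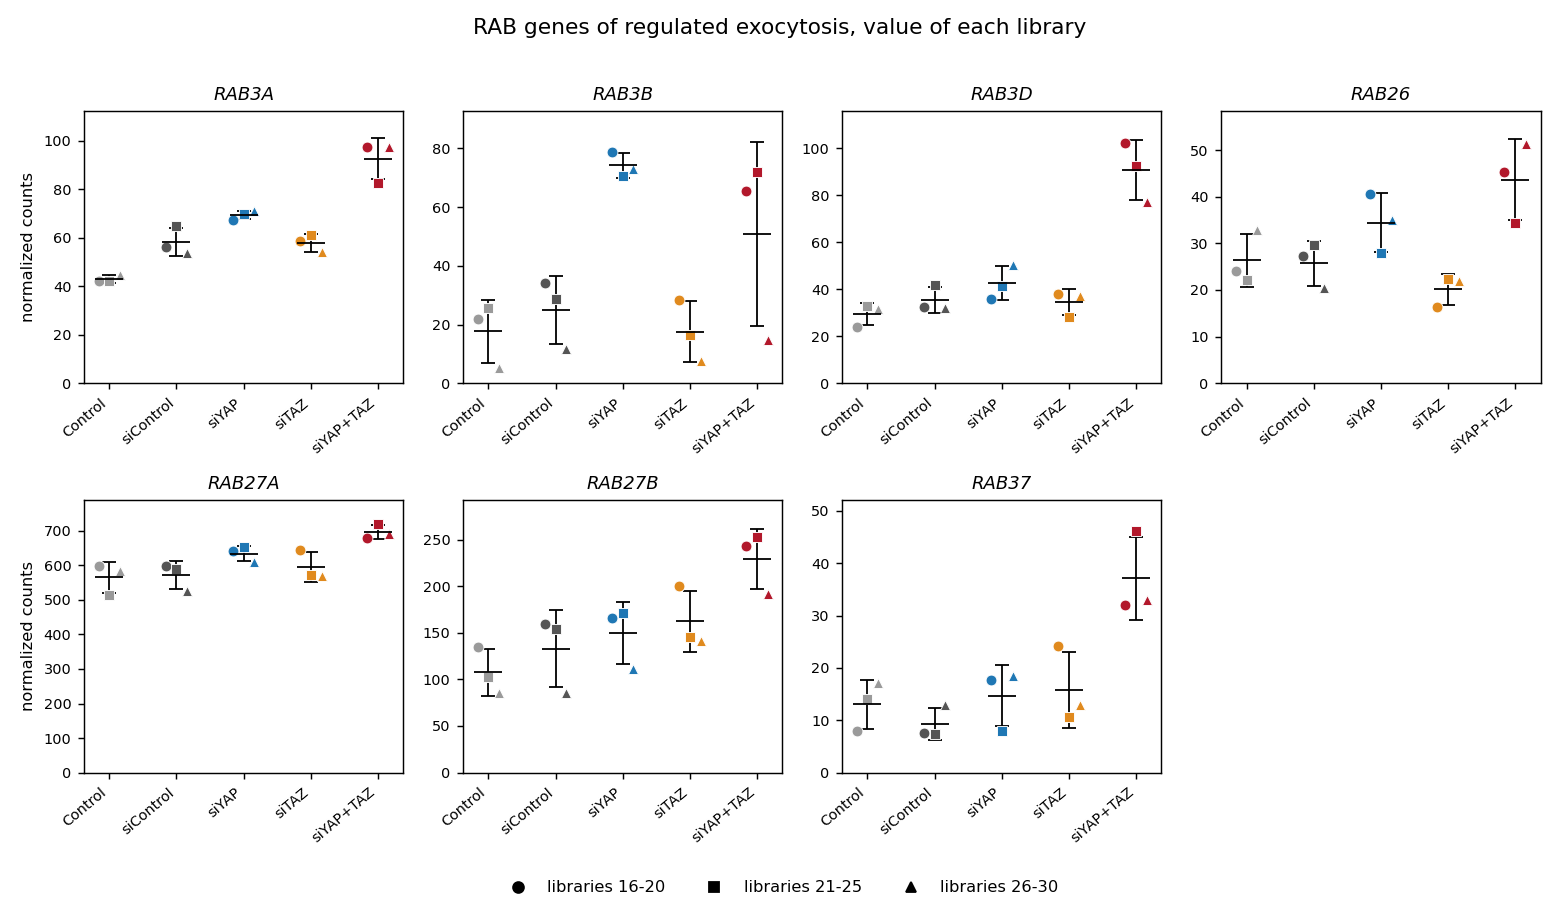
Normalized counts of the 7 RAB genes of regulated exocytosis in each of the 15 libraries, with group means and SD of 3 libraries. In RAB3D the siYAP+TAZ libraries lie from 77.1 to 102 and all others from 24.0 to 50.3, and in RAB3B libraries 26, 27, 29 and 30 are the lowest of their groups.

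On the degradative route, 2 of 7 RAB genes of late endosomes, lysosomes and autophagy rose, where 9.97% of all genes did, with a median log2 fold change of 0.01 over the 7. RAB7B, which works in transport from late endosomes back to the trans-Golgi network, was near the lower end of detection, with 4, 5 and 7 raw counts in siControl and 16, 18 and 38 in siYAP+TAZ. In normalized counts these were 3.40, 4.62 and 7.51 and 19.0, 19.3 and 34.9, and siYAP and siTAZ had 8.43, 3.97 and 13.4 and 4.31, 10.5 and 12.9. The co-knockdown libraries were above every other library, and both single knockdowns overlapped siControl. RAB7B had the largest log2 fold change of the RAB genes, 2.26 (SE 0.49, 95% interval 1.23 to 3.30, adjusted p 0.00334), with a correspondingly wide interval. RAB7A, the main RAB of late endosomes and lysosomes, had 6814, 7149 and 7329 in siControl and 6987, 6990.3 and 7246 in siYAP+TAZ, a log2 fold change of -0.00 with a 95% interval of -0.19 to 0.19 (adjusted p 0.983). Its groups overlapped. RAB20, linked to phagosomes and the maturation of endosomes, had 239.8, 215 and 195 in siControl and 279, 292 and 279.9 in siYAP+TAZ (log2 fold change 0.39, SE 0.13, adjusted p 0.0405). The groups did not overlap. RAB20 did not pass (adjusted p in parentheses) without siControl replicate 2 (0.107), siControl replicate 3 (0.144), siYAP+TAZ replicate 1 (0.0822), siYAP+TAZ replicate 2 (0.104) or siYAP+TAZ replicate 3 (0.0660), nor against Control (0.0624) or in libraries 16 to 25 alone (0.0540).

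RAB32 and RAB23 were the RAB genes that fell. RAB32, which with RAB38 serves the biogenesis of lysosome-related organelles such as melanosomes, lies on chromosome 6 from 146543833 to 146554953 and overlaps no other gene. It had 794, 788 and 846 normalized counts in siControl, 578, 703 and 699 in siYAP, 811, 851 and 791 in siTAZ and 661, 624 and 579 in siYAP+TAZ. Both groups given the YAP1 pool lay below siControl in every library, and siTAZ overlapped siControl. In siYAP+TAZ the log2 fold change of RAB32 was -0.38 (SE 0.09, 95% interval -0.57 to -0.20, adjusted p 0.00502). RAB38, the partner of RAB32, had 272, 275 and 328 in siControl and 335, 387 and 384 in siYAP+TAZ. The sign of its difference was opposite and the groups did not overlap, but it did not pass (log2 fold change 0.34, adjusted p 0.0720). RAB38 did pass by library size alone (adjusted p 0.0335), against Control (0.0300), in libraries 16 to 25 alone (0.0288) and without siControl replicate 3 (0.0445). RAB23, a RAB of the primary cilium that restrains Hedgehog signalling, had 724, 678 and 607 in siControl and 496, 578 and 528 in siYAP+TAZ. Its co-knockdown libraries were all below its siControl libraries (log2 fold change -0.33, SE 0.09, adjusted p 0.0164). RAB23 did not pass (adjusted p in parentheses) without siControl replicate 1 (0.0988), siControl replicate 2 (0.0545), siYAP+TAZ replicate 1 (0.0816) or siYAP+TAZ replicate 3 (0.0518), nor against Control (0.139). On the opposite strand BAG2 covers 57.8% of the exonic bases of RAB23, so its counts may include reads of BAG2 if strand was not used.

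Among the 3 RAB40 genes, whose proteins carry a SOCS box that binds a ubiquitin ligase, RAB40C rose. RAB40C had 666, 678 and 695 normalized counts in siControl, 603, 627 and 629 in siYAP, 709, 711 and 719.8 in siTAZ and 795, 852 and 872 in siYAP+TAZ. The siYAP libraries were all below siControl, the siTAZ libraries all slightly above it and the co-knockdown libraries well above both. In siYAP+TAZ the log2 fold change of RAB40C was 0.31 (SE 0.08, adjusted p 0.0133). RAB40B, which has been tied to secretion of matrix metalloproteinases at invadopodia, had a log2 fold change of 0.01 with a 95% interval of -0.38 to 0.39 (adjusted p 0.987) and overlapping groups. RAB42, a member with little known function, had 23.8, 18.5 and 20.4 in siControl, 25.3, 29.4 and 35.9 in siYAP, 33.6, 28.1 and 25.7 in siTAZ and 28.5, 32.2 and 53.2 in siYAP+TAZ. In siYAP+TAZ it rose with a log2 fold change of 0.87 (SE 0.28, adjusted p 0.0355) and did not overlap siControl. Both single knockdowns also lay above siControl in every library and overlapped siYAP+TAZ, but neither passed. RAB42 did not pass (adjusted p in parentheses) without siControl replicate 1 (0.0557), siControl replicate 2 (0.122), siControl replicate 3 (0.0850) or siYAP+TAZ replicate 3 (0.236), nor with only the groups compared in the fit (0.0564), against Control (0.0600) or in libraries 16 to 25 alone (0.277).

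The constitutive routes showed no RAB gene past the edgeR test over all libraries in siYAP+TAZ when no block was fitted. In that fit, 0 of 14 genes of the endoplasmic reticulum and Golgi, 0 of 8 of endosomal recycling and 0 of 4 of post-Golgi delivery changed, where 18.4% of all genes did. Of these RAB genes 1, 3 and 0 had an unadjusted p under 0.05, as had 5709 of all 18858 genes. DESeq2 and limma-voom called 0 of them too, but other alternatives called some, and those listed here are not all. With the run of library numbers fitted as a block in edgeR, RAB15, RAB1B, RAB2B, RAB30, RAB11B and RAB35 passed. RAB11B, at a log2 fold change of 0.21 (adjusted p 0.104), passed by library size alone (0.0330), with only the groups compared in the fit (0.0385), against Control (0.0272) and in libraries 16 to 25 alone (0.0427). RAB1B passed in libraries 16 to 25 alone (0.0257), RAB6A against Control (0.0108), RAB13 against Control (0.0419) and without siYAP+TAZ replicate 1 (0.0393), and RAB15 without siControl replicate 2 (0.0494), all as adjusted p. Their median log2 fold changes were 0.04, 0.05 and 0.01, against -0.00 over all genes. Among genes tied to invadopodia or protease delivery, RAB8A, which brings membrane-type metalloproteinase to the surface, had 1805, 1753 and 1875 normalized counts in siControl and 1778, 1838 and 1637 in siYAP+TAZ. On the opposite strand another gene covers 39.7% of the exonic bases of RAB8A. The log2 fold change of RAB8A was -0.05, with a 95% interval of -0.23 to 0.13. RAB11A, the main RAB of recycling endosomes, had 0.02 (-0.17 to 0.22), RAB4A of fast recycling 0.08 (-0.11 to 0.27), RAB14 of endosome to Golgi traffic -0.01 (-0.19 to 0.16) and RAB2A of the Golgi 0.09 (-0.07 to 0.24). RAB35, which acts in recycling to the plasma membrane, had -0.18 (-0.34 to -0.02, adjusted p 0.113), with all 3 co-knockdown libraries below siControl. No interval of these 6 genes reached further from 0 than that of RAB35.

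Levels between genes are compared per kilobase of exon, as normalized counts per kilobase in siControl. RAB1B of endoplasmic reticulum to Golgi transport was highest at 2437 per kilobase (SD 209, n = 3), followed by the recycling gene RAB11B at 2031 (SD 62.2). Neither overlapped the next in order. RAB10 of post-Golgi delivery had 1346 (SD 18.6), RAB34 of the Golgi 1300.3 (SD 82.9) and RAB35 1188 (SD 31.7), and in this trio neighbours overlapped. RAB31 was at place 23 of 55 with 190.4 per kilobase (SD 27.8) and did not differ beyond the spread from its neighbours RAB38 (204) and RAB9A (183). RAB22A was at 230.0 (SD 8.92). The genes with the largest fold changes were at the lower end: RAB3D had 8.07, RAB37 1.84 and RAB7B 1.405 per kilobase, and RAB4B was the lowest at 1.34. Of the 4 differentially expressed RAB genes, RAB31 was the only one above RAB3D. For RAB1B, other genes cover 43.8% of the exonic bases on the opposite strand.

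The single knockdowns changed few RAB genes. In siYAP against siControl, 0 RAB genes changed by edgeR, where 0.933% of all genes did, DESeq2 and limma-voom also gave 0, and some other alternatives gave 1 to 4. At an unadjusted p under 0.05 there were 4 of 55 RAB genes (RAB31, RAB32, RAB21 and RAB3B) and 2241 of all 18858 genes. RAB31 had a log2 fold change of 0.36 (95% interval 0.14 to 0.57, adjusted p 0.114), with all 3 siYAP libraries above siControl and 0.12, 0.39 and 0.57 within the 3 runs. RAB32 had -0.29 (95% interval -0.48 to -0.11, adjusted p 0.129), with all 3 libraries below. RAB3B had 1.55 (adjusted p 0.227), and it passed when only the groups compared were fitted (adjusted p 0.0380) and in libraries 16 to 25 alone (adjusted p 0.0134). The median over RAB genes was -0.00, as over all genes at 0.00.

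In siTAZ against siControl, RAB31 was the 1 RAB gene that changed, where 2.03% of all genes did. It rose 1.63-fold (log2 fold change 0.70, SE 0.10, 95% interval 0.49 to 0.92, adjusted p 0.00277), in all 3 libraries and by 0.48, 0.66 and 0.99 within the runs. RAB5B had 0.31 (95% interval 0.10 to 0.52, adjusted p 0.112) with all siTAZ libraries above siControl, and it passed at 0.39 (adjusted p 0.0353) without siTAZ replicate 1. An unadjusted p under 0.05 was found in 4 of 55 RAB genes and 3023 of all 18858 genes, and the median over RAB genes was 0.00, as over all genes. Transfection itself was read from siControl against Control, where edgeR called 0 RAB genes and 0% of all genes, DESeq2 and limma-voom called 0, and RAB3A alone of 55 RAB genes, with 398 of all 18858 genes, had an unadjusted p under 0.05 (RAB3A log2 fold change 0.44, unadjusted p 0.0170, adjusted p 0.9998). RAB31 differed by 0.12 between siControl and Control (95% interval -0.10 to 0.34). Against Control in place of siControl, RAB31 passed in siYAP too (log2 fold change 0.48, adjusted p 0.0244).

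**Figure D4:**
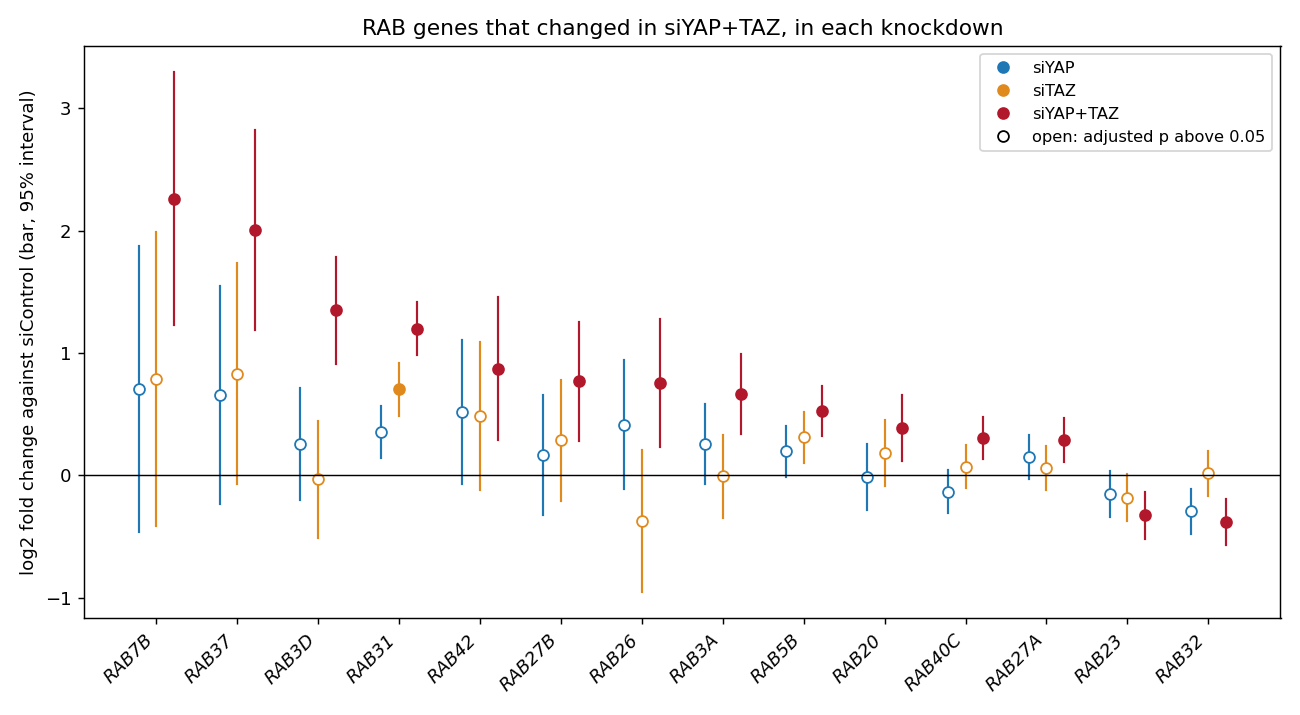
Log2 fold changes against siControl, with 95% intervals, of the 14 RAB genes that changed in siYAP+TAZ, shown for siYAP, siTAZ and siYAP+TAZ (3 libraries each, and the same 3 siControl libraries in all comparisons). RAB31 in siTAZ (0.70) is the only filled point, adjusted p at most 0.05, among the single knockdowns.

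The 3 comparisons with siControl share its libraries, so values are set side by side and the knockdowns were compared directly. The depth of knockdown was unequal, as WWTR1 averaged 534 normalized counts in siTAZ and 1180 in siYAP+TAZ. In these comparisons the loss of a further target and the unequal depth cannot be told apart. RAB31 had log2 fold changes of 0.36, 0.70 and 1.198 in siYAP, siTAZ and siYAP+TAZ. RAB3D had 0.25, -0.03 and 1.35, and RAB3A 0.25, -0.01 and 0.67. RAB32 had -0.29, 0.01 and -0.38, and RAB5B 0.20, 0.31 and 0.52. In siYAP+TAZ against siYAP 4 RAB genes changed, where 5.13% of all genes did: RAB31, RAB3D, RAB37 and RAB40C. RAB31 was higher by 0.84 (SE 0.10, adjusted p 8.99e-05) and RAB3D by 1.09 (SE 0.20, adjusted p 0.00365). RAB40C was higher by 0.44 (SE 0.08, adjusted p 0.00384), and RAB37 by 1.35 (SE 0.36, adjusted p 0.0351). In all 4 the co-knockdown libraries lay above the siYAP libraries. RAB37 did not pass (adjusted p in parentheses) without siYAP replicate 1 (0.0751), siYAP replicate 2 (0.155), siYAP+TAZ replicate 1 (0.0629), siYAP+TAZ replicate 2 (0.152) or siYAP+TAZ replicate 3 (0.0577). The median log2 difference was 0.08 over RAB genes and -0.01 over all genes.

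In siYAP+TAZ against siTAZ 5 RAB genes changed, where 5.44% of all genes did: RAB31, RAB3D, RAB26, RAB3A and, lower, RAB32. RAB31 was higher by 0.50 (SE 0.10, adjusted p 0.00736) and RAB3D by 1.38 (SE 0.21, adjusted p 0.00110), and both passed in every setting that left out a library. RAB26 was higher by 1.13 (adjusted p 0.0168), RAB3A by 0.67 (adjusted p 0.0167) and RAB32 had -0.40 (adjusted p 0.0129). The groups of these 5 genes did not overlap. RAB26 did not pass (adjusted p in parentheses) without siTAZ replicate 1 (0.0688), siYAP+TAZ replicate 1 (0.0581) or siYAP+TAZ replicate 3 (0.0617), nor in libraries 16 to 25 alone (0.0541). RAB3A did not pass (adjusted p in parentheses) without siTAZ replicate 3 (0.0718) or siYAP+TAZ replicate 1 (0.0681), nor with only the groups compared in the fit (0.0659) or in libraries 16 to 25 alone (0.0847). RAB32 did not pass (adjusted p in parentheses) without siTAZ replicate 2 (0.0641), siYAP+TAZ replicate 2 (0.0567) or siYAP+TAZ replicate 3 (0.0614). Without siYAP+TAZ replicate 1 the count was 3 in place of 5.

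In siYAP against siTAZ edgeR called 0 RAB genes, where 0.642% of all genes changed, limma-voom called 0, DESeq2 called 1 (RAB3B), and 8 of 55 had an unadjusted p under 0.05, as had 2576 of all 18858 genes. RAB31 was lower in siYAP than in siTAZ in every library, with a log2 difference of -0.35 (95% interval -0.56 to -0.13, adjusted p 0.128). RAB3B was higher in siYAP by 2.01 (95% interval 0.79 to 3.22, adjusted p 0.131 by edgeR). RAB36 passed when siTAZ replicate 1 was left out (-0.59, adjusted p 0.0452, against -0.41 and 0.250 with all libraries). The interaction, which asks whether the co-knockdown differs from the sum of the single knockdowns on the log2 scale, was called in 0 RAB genes and in 0.0106% of all genes by edgeR. It takes the knockdowns as equally deep, but WWTR1 averaged 534 in siTAZ and 1180 in siYAP+TAZ. YAP1 averaged 1513 in siYAP (SD 1091) and 2079 in siYAP+TAZ (SD 246). Unequal depth and a departure from the sum cannot be told apart. DESeq2 and limma-voom gave 0 as well, and 4 of 55 RAB genes had an unadjusted p under 0.05, as had 1104 of all 18858 genes. RAB3D had the smallest of these, with an interaction of 1.13 (95% interval 0.49 to 1.77, unadjusted p 0.00161, adjusted p 0.460). For RAB31 it was 0.14 (95% interval -0.16 to 0.44, adjusted p 0.948), an interval that spans 0.

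Genes that serve the RAB cycle were taken from 4 lists of 123 genes, of which 115 were in the table. In siYAP+TAZ 27 of them changed, 19 higher and 8 lower, beside the 18.4% of all genes given above, and their median log2 fold change was 0.04, against -0.00 over all genes. Of the 8 genes for prenylation and membrane extraction 2 changed (median 0.04): RABGGTB, the catalytic subunit of RAB geranylgeranyl transferase, fell, and RABAC1, which helps to free RAB proteins from their extraction factor, rose. RABGGTB had 1568, 1622 and 1405 normalized counts in siControl and 1306, 1230.0 and 1226 in siYAP+TAZ (log2 fold change -0.29, adjusted p 0.0285). RABAC1 had 215, 180.3 and 173 and 329, 275 and 240.4 (0.57, adjusted p 0.0123). Of 33 exchange factors 5 rose and 2 fell (median -0.02). DENND6B, a DENN domain protein, had 13.6, 14.8 and 17.2 in siControl and 52.3, 44.05 and 50.5 in siYAP+TAZ (1.69, SE 0.30, adjusted p 0.000738). ALS2CL, which binds RAB5, had 776, 909 and 1056 and 533, 502 and 534 (-0.80, SE 0.12, adjusted p 0.000161), and RAB3IL1, an exchange factor of RAB8 proteins, had 229.6, 235 and 354 and 133, 172 and 220.2 (-0.63, adjusted p 0.0249). In each of these 5 genes siYAP+TAZ and siControl did not overlap.

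Of 31 GTPase-activating proteins 5 rose and 2 fell (median 0.06), where 9.97% and 8.39% of all genes did. TBC1D2, which acts on RAB7, had 3457, 3630.2 and 3631 normalized counts in siControl and 2184, 2197 and 2257 in siYAP+TAZ, with narrow spread in both groups (log2 fold change -0.69, SE 0.08, adjusted p 8.37e-06). TBC1D8B, with the same catalytic domain, had 99.5, 107 and 93.3 and 189, 212 and 169 (0.92, adjusted p 0.000620), and TBC1D17 had 973, 1062 and 915 and 1596, 1509 and 1524 (0.65, adjusted p 1.16e-05). Of 43 effectors 8 rose and 3 fell (median 0.04), beside the same 9.97% and 8.39% of all genes. Effectors of exocytic RAB proteins were on both sides. SYTL2 and SYTL1, synaptotagmin-like effectors of RAB27, had 206, 230.2 and 129 and 112, 113 and 114 in siControl and 384, 371 and 314 and 222, 169.7 and 191 in siYAP+TAZ, with log2 fold changes of 0.91 (adjusted p 0.00386) and 0.78 (adjusted p 0.00598). RIMS2, a RAB3 effector of active zones, had 492, 497 and 826 in siControl and 175, 151 and 322 in siYAP+TAZ (-1.47, SE 0.41, adjusted p 0.0288). Libraries 26 to 30 were each the highest of their group for RIMS2. The siYAP+TAZ libraries of these 6 genes did not overlap siControl.

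**Figure D5:**
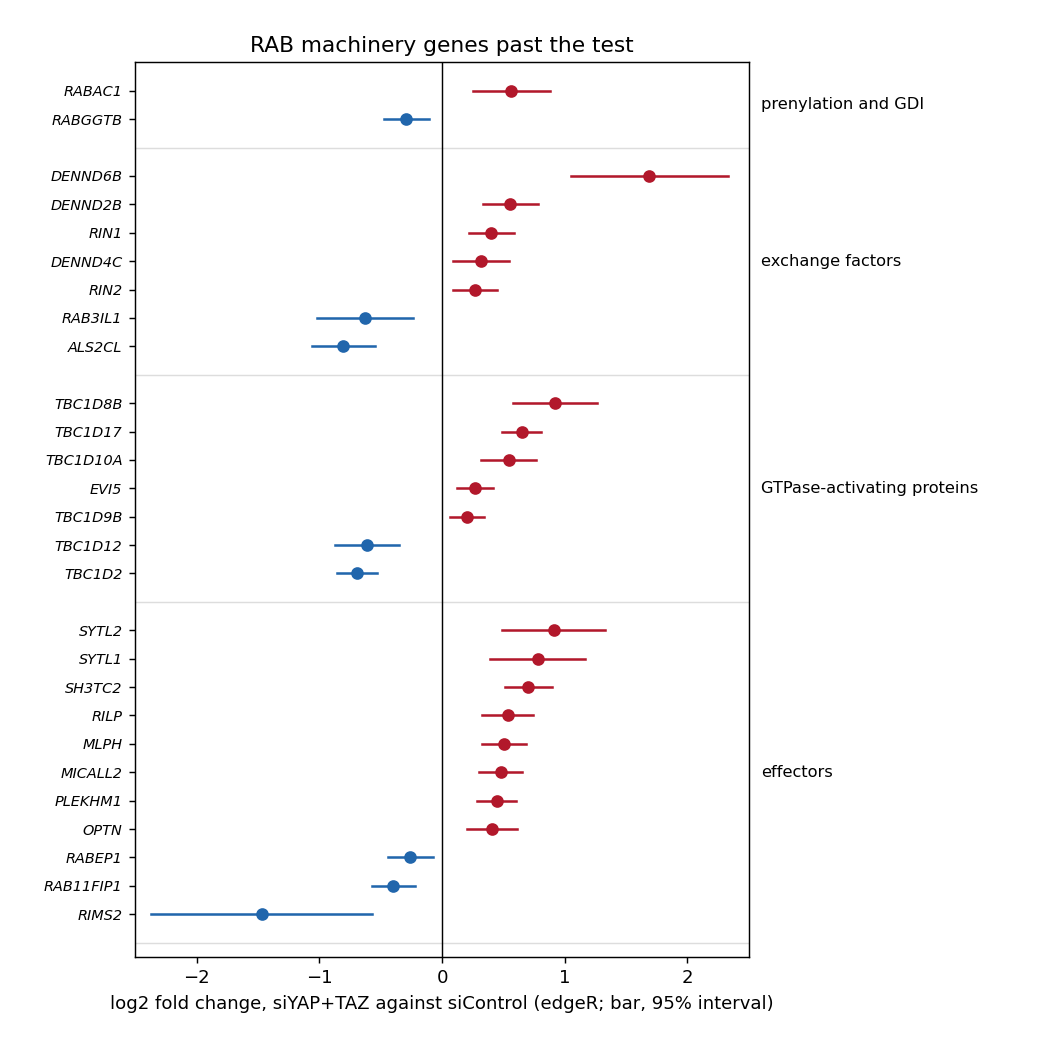
Log2 fold changes in siYAP+TAZ against siControl, with 95% intervals, of the 27 RAB machinery genes with an edgeR adjusted p of at most 0.05, by list. Of these, 19 lie above 0 and 8 below, from RIMS2 at -1.47 to DENND6B at 1.69.

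The 5 genes whose mean log2 level over the 5 groups ran most parallel to RAB31 were NACC2, C15orf39, ZFP64, TAGLN2 and CCDC149, out of 10639 genes that averaged 100 normalized counts or more. Across the 5 group means Pearson r was at least 0.999 for each. Of the 10639 genes 121 exceeded 0.99, so a high r over only 5 points was not limited to these 5. Over the 15 libraries r with RAB31 was 0.827 for NACC2, 0.963 for C15orf39, 0.902 for ZFP64, 0.908 for TAGLN2 and 0.954 for CCDC149. The points share the siRNA groups, and r is given as a description.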

How the data were processed

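The raw counts per gene were deposited by the authors. According to their processing notes, reads were aligned to GRCh38 with STAR 2.4.2a, and their normalization used DESeq2. The 30 normalized and transformed columns and the 70 comparison columns (fold changes and p-values) of the same table were not used. All 18858 genes were kept, and the highest library of every gene had at least 6 reads.

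The 15 libraries were fitted together with edgeR 4.0.16 in R 4.3.3 with TMM scaling, robust quasi-likelihood dispersions and no block, and p-values were adjusted by Benjamini-Hochberg over all genes. For normalized counts, each library was divided by its effective size (total times TMM factor) and brought to the mean effective size of all 15.

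RAB genes were taken by symbol, and roles and machinery lists from general knowledge of the family, with earlier results of these data known. RAB genes were named in the text if they changed in a knockdown against siControl or in the interaction, were among the 5 with the highest level per kilobase in siControl, are RAB31 or its closest relative RAB22A, or have published work on invadopodia or protease delivery. Machinery genes were named if they changed in siYAP+TAZ and were among the 3 with the largest changes of their list, or if they changed in a single knockdown. Alternatives were DESeq2 1.42.0 as in the study's methods, limma-voom (limma 3.58.1), DESeq2 size factors, library size only, 2 filters, estimation without robustness, only the groups compared, a replicate block, Control as the reference, each library left out, and libraries 16 to 25 alone, added after the data were seen.

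Gene positions and exon lengths came from GENCODE 44. The strand of counting is not stated, and reads shared between paralogs or overlapping genes are uncertain. The procedure was tested on simulated counts. No libraries were duplicates: replicate pairs differed with a chi-square per degree of freedom of 6.69 to 42.3.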

Additional observations from a re-analysis of the deposited data

Results flagged for a closer look

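RAB40C, a SOCS box RAB, lay on opposite sides of siControl in the single knockdowns. Every siYAP library (603, 627 and 629 normalized counts) was below and every siTAZ library (709, 711 and 719.8) above all siControl libraries (666, 678 and 695), and the log2 difference between siYAP and siTAZ was -0.20. The direct edgeR test did not pass (adjusted p 0.282), and the interaction of 0.37 had an unadjusted p of 0.005205 and an adjusted p of 0.601. Control libraries had 636, 613 and 764, a range that held every siControl and every siTAZ library. What lies behind the difference between siYAP and siTAZ was not tested.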

How the results depend on the processing

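RAB31 in siYAP+TAZ against siControl kept its direction and passed in all 11 alternatives (log2 fold change 1.11 to 1.32) and with each of 6 libraries left out (1.083 to 1.27). No RAB gene named that passed changed sign in any alternative. Some that did not pass and lay near 0 did, such as RAB7A (-0.00 in siYAP+TAZ, 0.04 by library size alone) and RAB14 (-0.01, 0.03 by library size alone), and RAB8A (-0.05, 0.04 in libraries 16 to 25 alone). The filters left 54 of 55 RAB genes. The count of RAB genes changed in siYAP+TAZ against siControl was 14, and 13 by DESeq2 or with only the groups compared, 15 against Control, 17 by library size alone and 10 to 12 with a library left out. The differentially expressed count was 4 (4 to 5 with a library left out, 6 against Control, 5 in libraries 16 to 25 alone). In siYAP the count of changed RAB genes was 0, but 1 (RAB3B) with only the groups compared, 2 (RAB31 and RAB3A) against Control and 1 (RAB3B) in libraries 16 to 25 alone, a choice made after the data were seen. In siTAZ the count of changed RAB genes was 1, but 2 (RAB31 and RAB5B) both against Control and without siTAZ replicate 1. Against siYAP the co-knockdown count was 4 (3 to 5 with a library left out), but 5 by limma-voom or library size alone, 6 by DESeq2 (RAB20 and RAB5B added), 6 under each filter (RAB17 and RAB7B added) and 7 in libraries 16 to 25 alone. Against siTAZ it was 5, but 6 by library size alone, 4 with only the groups compared and 3 without siYAP+TAZ replicate 1. Between siYAP and siTAZ it was 0, but 1 by DESeq2 and in libraries 16 to 25 alone (RAB3B) and 1 without siTAZ replicate 1 (RAB36). With the run of library numbers as a replicate block the counts were 23 in place of 14 in siYAP+TAZ, 48 in place of 27 machinery genes, 4 in place of 0 in siYAP, 3 in place of 1 in siTAZ, 12 in place of 4 against siYAP, 13 in place of 5 against siTAZ and 5 in place of 0 between siYAP and siTAZ, and the replicate block ended no call. With it RAB31 (adjusted p 0.00398), RAB32 (0.0235), RAB15 and RAB3B passed in siYAP, RAB31 also passed between siYAP and siTAZ (0.0041), and RAB38 (0.00805), RAB11B (0.0256), RAB1B (0.0131), RAB2B, RAB3B, RAB15, RAB21, RAB30 and RAB35 were the additions in siYAP+TAZ. Deviations from the group means correlated above 0.1 in 21 of 30 pairs of libraries in the same run (median 0.19) and in 8 of 60 other pairs (median -0.12), so libraries of the same run were more alike. The labels name no pairing, the samples were treated as paired only if all 30 pairs exceeded 0.1, and the fit without the block was kept. The cause of these differences was not tested. The share of all genes called with the block is not given here, so the counts with the block cannot be set against it. Depth limits RAB7B and RAB37, with 4 to 12 raw counts per siControl library.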

Other observations

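In the single knockdowns 2 of the 115 machinery genes changed in siYAP, where 0.933% of all genes did, and 3 in siTAZ, where 2.03% did. RIN1, an exchange factor of RAB5, and TBC1D17, a GTPase-activating protein, rose in siYAP (log2 fold changes 0.48 and 0.32, edgeR adjusted p 0.0108 and 0.0486). In siTAZ, DENND2B, a DENN domain exchange factor, rose by 0.53 (adjusted p 0.0141), MLPH, which links RAB27A to myosin, by 0.43 (0.0112), and SH3TC2, an effector of RAB11, by 0.38 (0.0344). All 5 also rose in the co-knockdown.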
